A study of Homo sapiens with 6 samples.

Results

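The 45 nuclear receptor genes of the human genome described here were chosen by name, all of them protein-coding, out of 20033 protein-coding genes on the main chromosomes. They were selected on a reading of the same data: ESRRG, which encodes estrogen-related receptor gamma, holds a region listed in all 4 peak lists of the study. The presence of peaks in ESRRG is therefore a description of how the set came about and not a result. The data came from ChIRP-seq, in which biotin-labeled oligos pull down an RNA with the chromatin it touches and the DNA is sequenced, in HCT116, an established human colorectal carcinoma cell line, with CRLM1, a long noncoding RNA annotated as LINC01767, as the target. There were 6 samples in 3 groups of 2 replicates, all from HCT116 cells: pull-down with CRLM1 antisense oligos (CRLM1_IP), pull-down with LacZ antisense oligos (LacZ) and input chromatin (Input). No other treatment or genetic change is named for these groups, and nothing states whether the replicates were separate cultures. Each of the 4 lists compares 1 CRLM1_IP library with the Input or the LacZ library of the same number, so both lists of a replicate share 1 pull-down library. They are called here by the replicate and the control, such as the replicate 1 Input list.

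Nuclear receptors are transcription factors with a zinc-finger DNA-binding domain and a ligand-binding domain. Many switch genes on or off when a hormone, vitamin or lipid enters the ligand pocket, and others, the orphan receptors, have no known or required ligand. They bind DNA as monomers, homodimers or heterodimers with a retinoid X receptor, mostly at copies of the hexamer AGGTCA, and they recruit coactivators or corepressors. In the gut they are known for roles in bile acid, lipid and vitamin D handling and in epithelial renewal.

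The region that led to the choice of these genes is shown first. In replicate 1 the ESRRG peak lay at chr1:216918293-216918658 (GRCh38), and in replicate 2 at chr1:216917794-216918356. Both lie in an intron of ESRRG, which runs along the minus strand from 217137755 to 216503246. The 300 bases of the plus strand at chr1:216918175-216918474 are printed below, with capitals for the 64 bases that the peaks of both replicates share.
ESRRG shared region: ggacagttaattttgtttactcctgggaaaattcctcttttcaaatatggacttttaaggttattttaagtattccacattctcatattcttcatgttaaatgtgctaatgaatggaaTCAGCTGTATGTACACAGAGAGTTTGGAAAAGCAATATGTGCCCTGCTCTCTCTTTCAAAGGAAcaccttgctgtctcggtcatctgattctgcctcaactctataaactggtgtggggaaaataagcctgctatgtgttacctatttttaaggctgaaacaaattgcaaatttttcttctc
The shared stretch began at 216918293 and ended at 216918356, and the 300 bases had a GC content of 36.3%. Within the peaks of both replicates no 32-base word occurred a second time in the genome.

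The replicate 1 Input list held 9331 peaks, the replicate 1 LacZ list 10310, the replicate 2 Input list 16777 and the replicate 2 LacZ list 363. Each peak carries a score from the peak caller, with a floor of 50.00 to 50.03. The lists hold no read counts, so the depth of the libraries is unknown. As a check of the capture, the peak at LINC01767 scored 1008.27, 1466.89, 1580.45 and 935.57 in these 4 lists in that order. The highest scores in any receptor gene were 78.17, 93.68, 92.87 and 56.43. The captured locus thus scored above every receptor gene peak in each list, although the scale of the score is not known. None of the 93 peaks listed in receptor genes reached a score of 100, against 0.551% to 2.38% of all peaks in a list. Of these 93 peaks, 8 were in the highest 10% of scores of their list.

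It was asked how many receptor genes had a peak in the gene body or the 5 kb upstream, beside genes of the same length. For each receptor gene, the share of the 200 other protein-coding genes nearest in length that had a peak was taken, and the shares were added up. In the replicate 1 Input list, 13 of the 45 genes had a peak (28.9%, 95% exact binomial interval 16.4% to 44.3%), against 10.9 from genes of the same length. Over all protein-coding genes 13.1% had one. In the replicate 1 LacZ list, 15 genes had a peak (33.3%, interval 20% to 49%), against 14.5 from length and 20.2% of protein-coding genes. In the replicate 2 Input list there were again 13, now below the 16.8 from genes of the same length, where the share of protein-coding genes was 22.2%. In the replicate 2 LacZ list, ESRRG was the only receptor gene with a peak, against 0.87 from length and 1.02% of protein-coding genes. The ratios of the observed number to that from length were 1.19, 1.03, 0.774 and 1.15. Without ESRRG they were 1.18, 1.02, 0.758 and 0. The replicate 2 LacZ count was fixed in advance, since ESRRG chose the set. In the other lists the length-based number was inside the interval of the count. These intervals cover the counting of genes only.

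Counts over both replicates were taken next. Against Input, 9 receptor genes had a peak in both replicates (8.08 from genes of the same length, 7.9% of protein-coding genes), and against LacZ, ESRRG alone did (0.57 from length, 0.559% of protein-coding genes). The LacZ count was fixed by the choice of the set and was 0 without ESRRG (0.51 from length). With either control, 11 genes had a peak in both replicates, beside 10.7 from length and 11.2% of protein-coding genes. At least 1 list had a peak in 20 receptor genes, beside 23.1 from length and 34.8% of protein-coding genes. Of these 20 genes, 11 had peaks in both replicates, 7 in replicate 1 alone and 2 in replicate 2 alone. Among all protein-coding genes, 6976 had a peak in at least 1 list and 2244 of them in both replicates.

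**Figure D1:**
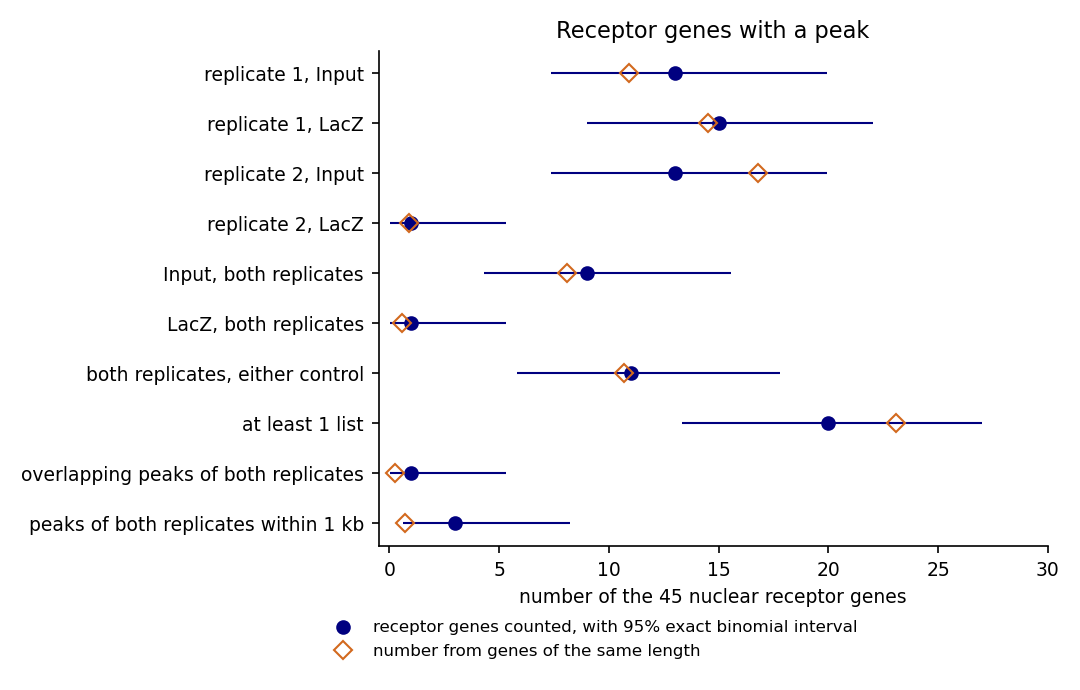
Number of the 45 nuclear receptor genes (horizontal axis) that had a peak in each list or combination of lists. Filled circles are the counts with 95% exact binomial intervals, and open diamonds are the numbers given by protein-coding genes of the same length; in the 4 single lists the circles stand at 13, 15, 13 and 1 and the diamonds at 10.9, 14.5, 16.8 and 0.87.

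Gene length went along with these counts. The median receptor gene was 53.7 kb long, from 2.49 kb for NR0B2 to 910.0 kb for RARB, against 27.5 kb for all protein-coding genes. Of 18 receptor genes of at least 100 kb, 15 had a peak in some list, whereas of 27 shorter ones 5 did. Among all protein-coding genes the shares were 81% for those of at least 100 kb and 24.5% for shorter ones. The 3 longest, RARB, RORA and ESRRG, held 47 of the 93 listed peaks (50.5%) with 35.8% of the receptor gene length. Counted per length, receptor genes held 3.78, 4.23, 5.89 and 0.151 peaks per Mb in the 4 lists, where protein-coding genes held 2.95, 3.98, 5.54 and 0.142. These densities include ESRRG. The ratios of the densities were 1.28, 1.06, 1.06 and 1.06 with it and 1.13, 1.01, 0.936 and 0 without it. With the span of the MANE Select transcript, the single model that NCBI and Ensembl chose to represent a gene, they were 0.996, 0.795, 0.953 and 0. At or above the median score the first ratio was 0.935. The flanks of the receptor genes, of like total size, held 24, 29, 42 and 2 peaks, and the genes themselves 25, 28, 39 and 1.

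**Figure D2:**
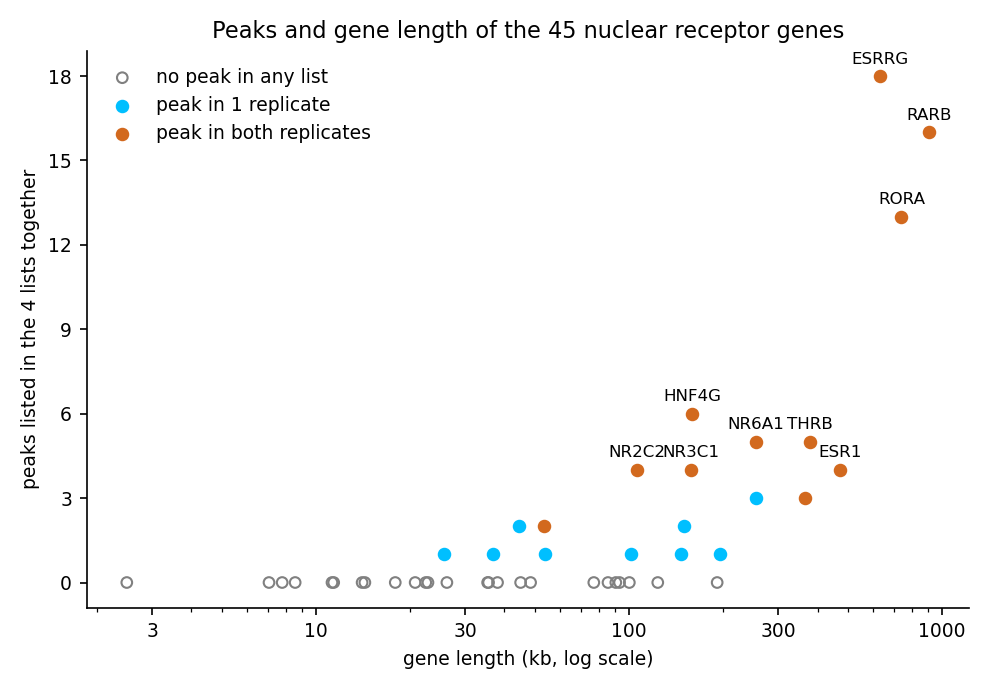
Peaks listed in the 4 lists together (vertical axis) against gene length in kb (horizontal log axis) for the 45 nuclear receptor genes. Each point is a gene, open where no list had a peak and coloured by whether 1 or both replicates had one; ESRRG with 18, RARB with 16 and RORA with 13 listed peaks stand apart at the long end, and all other genes have 6 or fewer.

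ESRRG, a receptor that is active without a bound hormone and is known for switching on genes of mitochondrial oxidative metabolism, had 5 peaks in the replicate 1 Input list, 4 in the replicate 1 LacZ list, 8 in the replicate 2 Input list and 1 in the replicate 2 LacZ list. The 200 genes nearest to it in length (493.1 to 773.1 kb) had a median of 2, 2, 4 and 0 peaks. In those lists 25, 43, 19 and 12 of the 200 genes had at least as many as ESRRG. Peaks in all 4 lists occurred in 9 of the 200 genes and in 84 protein-coding genes in all, and ESRRG was the only receptor gene with them.

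The region shared by all lists in ESRRG was narrow. It scored 65.52 against Input and 69.74 against LacZ in replicate 1, above 78.5% and 80.9% of the peaks in those lists. In replicate 2 it scored 64.25 against Input and 56.43 against LacZ, above 71.5% and 52.6% of the peaks. The peaks of the replicates shared 64 bp at their edges, while the 194 overlapping pairs of replicate 1 and replicate 2 peaks in the genome shared a median of 331 bp. An overlap of 64 bp or less was seen in 6.7% of those pairs. The nearest gene outside the rule was RARB, where the closest peaks of the 2 replicates were 803 bp apart. At a reciprocal overlap of 50% of the peak length, the ESRRG region was no longer shared, whereas 132 of the 194 pairs were kept.

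The other ESRRG peaks did not overlap between replicates. In replicate 1 the highest-scoring one lay at chr1:217036813-217037031 with 78.17 against Input and 88.44 against LacZ, above 91.5% and 95.3% of the peaks in those lists. In the replicate 2 Input list the highest-scoring one was at chr1:216912845-216913234 with 70.03, and 39% of its length was made of 32-base words found elsewhere in the genome. The ESRRG span used here covers all annotated transcripts and begins 414.3 kb before the start of the MANE Select transcript. Within the MANE Select span of 220.2 kb and its 5 kb upstream lay 5 of the 18 listed peaks, and none of them was the shared region.

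**Figure D3:**
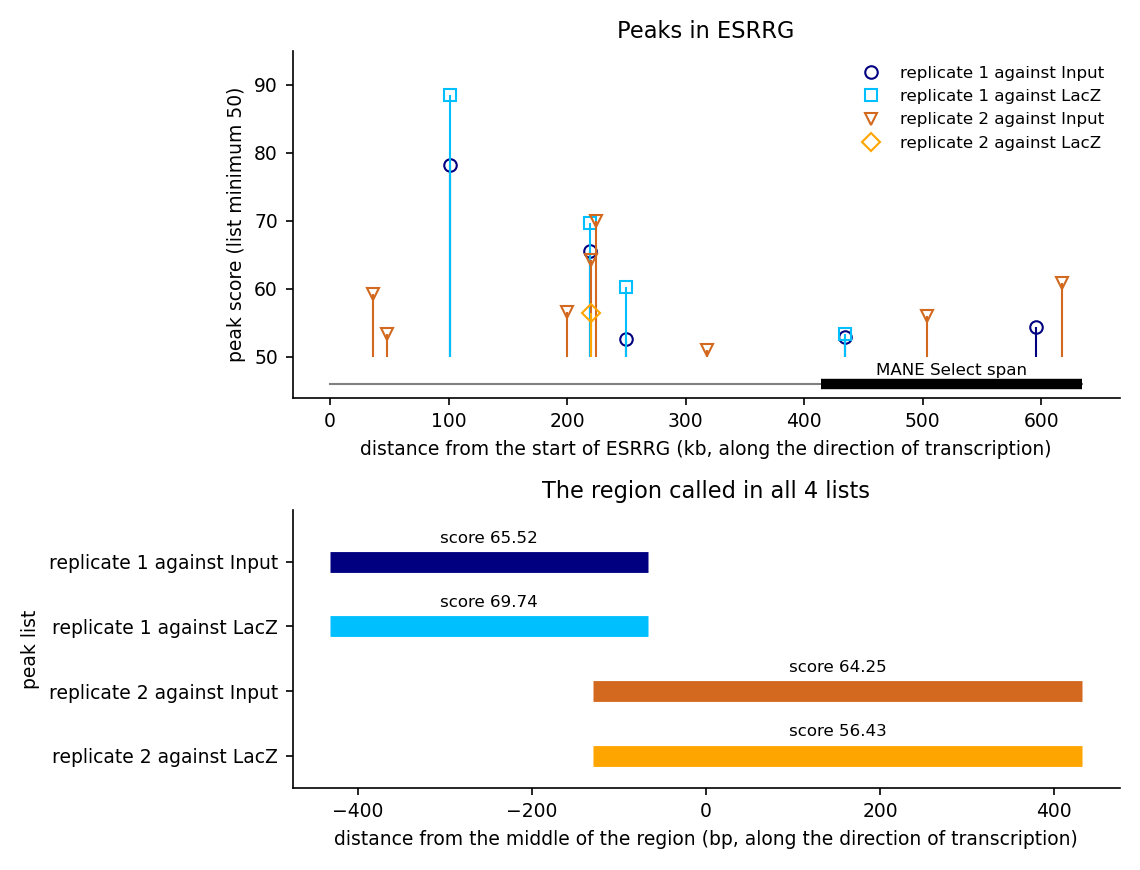
Upper panel: score of each ESRRG peak (vertical axis) against its distance from the start of the gene in kb, with 1 symbol per list and a black bar for the MANE Select span. Lower panel: extent of the region called in all 4 lists, in bp from its middle; the replicate 1 bars and the replicate 2 bars meet in 64 bp.

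The receptors for thyroid hormone, retinoids and vitamin D and their RXR partners comprised 9 genes, of which 4 had a peak in some list, beside 4.81 from genes of the same length. RARB, the retinoic acid receptor beta gene, whose loss is well known in epithelial tumors, had 2 peaks in the replicate 1 Input list, 7 in the replicate 1 LacZ list, 7 in the replicate 2 Input list and 0 in the replicate 2 LacZ list. The 2 peaks of the first list were reached by 145 of the 200 genes nearest in length, whose median was 3. The 7 of the second list were reached by 10 of them and the 7 of the third by 66. The highest RARB score was 92.87, in replicate 2 at chr3:25403592-25404311, above 97.2% of the peaks in that list. Of the 16 listed RARB peaks, 4 lay in the MANE Select span, and that transcript starts 740.4 kb into the gene. THRB, the thyroid hormone receptor beta gene, had 3 peaks in the replicate 1 Input list, 0 in the replicate 1 LacZ list, 2 in the replicate 2 Input list and 0 in the replicate 2 LacZ list. None of its positions was thus called against LacZ. RXRG, which encodes a heterodimer partner of many other receptors, had a single position, chr1:165437507-165438004, with a score of 54.71 against Input and 60.38 against LacZ in replicate 1 and none in replicate 2.

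The lipid, bile acid and xenobiotic sensors comprised 13 genes. In some list 4 of them had a peak, beside 6.17 from genes of the same length, and HNF4G alone had one in both replicates. HNF4G, an HNF4 family factor expressed in the intestine, had 4 peaks in the replicate 1 Input list, 0 in the replicate 1 LacZ list, 2 in the replicate 2 Input list and 0 in the replicate 2 LacZ list. None of the 200 genes nearest in length had as many as 4 in the replicate 1 Input list, while the 2 of replicate 2 were reached by 60 of them. Only 1 of its 6 listed peaks lay in the MANE Select span with its upstream window. NR5A2, which encodes the bile acid regulator LRH-1, had 1 position in replicate 1, scoring 55.29 against Input and 62.31 against LacZ, and none in replicate 2. Nothing was listed at HNF4A, the main HNF4 gene of the gut, or at NR1H4, the bile acid receptor gene. Most genes of these lengths had no peak in a given list either. Of the genes nearest to HNF4A in length, 15%, 26%, 34% and 1.5% had one in the 4 lists. For NR1H4 the shares were 22.5%, 36.5%, 39% and 2%.

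Of the 4 clock receptors, which set the phase of circadian genes by repressing or activating BMAL1, 2 had a peak, beside 2.23 from genes of the same length. RORA, an activating receptor, had 2 peaks in the replicate 1 Input list, 3 in the replicate 1 LacZ list, 8 in the replicate 2 Input list and 0 in the replicate 2 LacZ list. Of the 200 genes nearest in length, 131 reached its 2 peaks of the first list, 88 the 3 of the second and 30 the 8 of the third. The MANE Select span of RORA is the whole gene of 741.0 kb, so all 13 listed peaks lay in it by the annotation alone. In ESRRG that span is 220.2 kb of 634.5 kb and in RARB 169.7 kb of 910.0 kb.

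The steroid receptors were the group with the highest share: 4 of 5 genes had a peak in some list, beside 4.25 from genes of the same length. NR3C1, the glucocorticoid receptor gene, had 1 position in replicate 1, scoring 55.00 against Input and 55.55 against LacZ. It had 2 positions in the replicate 2 Input list, with 80.44 and 67.44. All 4 listed peaks were in intron 2 of the MANE Select transcript. ESR1, the estrogen receptor alpha gene, had 1 peak in the replicate 1 Input list, 1 in the replicate 1 LacZ list, 2 in the replicate 2 Input list and 0 in the replicate 2 LacZ list, all at different positions. Its peak against LacZ scored 87.16 and was not called against Input. NR3C2, the mineralocorticoid receptor gene, had 0, 1, 2 and 0 peaks in the 4 lists in the same order. ESR2, the estrogen receptor beta gene, had 2 peaks in the replicate 1 Input list and 1 against LacZ. All of them lay beyond the end of the MANE Select transcript, where the annotation also places SYNE2, a nuclear envelope protein gene. Of the 3 estrogen-related receptors, ESRRG alone had a peak, beside 1.9 from genes of the same length, and it chose the set. ESRRA and ESRRB had no peak in any list. ESRRA is 11.2 kb long, and 2%, 7%, 3.5% and 1% of the genes nearest to it in length had a peak in the 4 lists.

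The other orphan receptors comprised 11 genes, and 5 had a peak in some list, beside 3.72 from genes of the same length. In both replicates 3 of them had one, beside 1.11 from length. Of the other groups, only the steroid receptors were above their number from length, with 3 beside 2.8. The thyroid hormone, retinoid and vitamin D group had 2 beside 2.31, and the lipid, bile acid and xenobiotic sensors 1 beside 1.87. There was 1 beside 1.34 among the clock receptors and 1 beside 1.29 among the estrogen-related receptors. Over all 45 genes the count was 11 beside 10.7. NR6A1, the germ cell nuclear factor gene, had 1 peak in the replicate 1 Input list, 3 in the replicate 1 LacZ list, 1 in the replicate 2 Input list and 0 in the replicate 2 LacZ list. The 3 peaks against LacZ were reached by 17 of the 200 genes nearest in length, and the single peaks against Input by 107 in replicate 1 and 145 in replicate 2. NR2C2, the testicular receptor 4 gene, had 1, 1, 2 and 0 peaks in the 4 lists, all at different positions. Of its 2 peaks in replicate 2 and the 1 against LacZ in replicate 1, each overlapped MRPS25, a mitochondrial ribosome gene, in the annotation. NR2C1, the testicular receptor 2 gene, had the highest score of any receptor gene, 93.68 in the replicate 1 LacZ list at chr12:95028426-95029001. It stood above 96.8% of the peaks in that list. The position was not called against Input, and 25.3% of it consisted of 32-base words found elsewhere in the genome. Its replicate 2 peak scored 52.31.

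**Figure D4:**
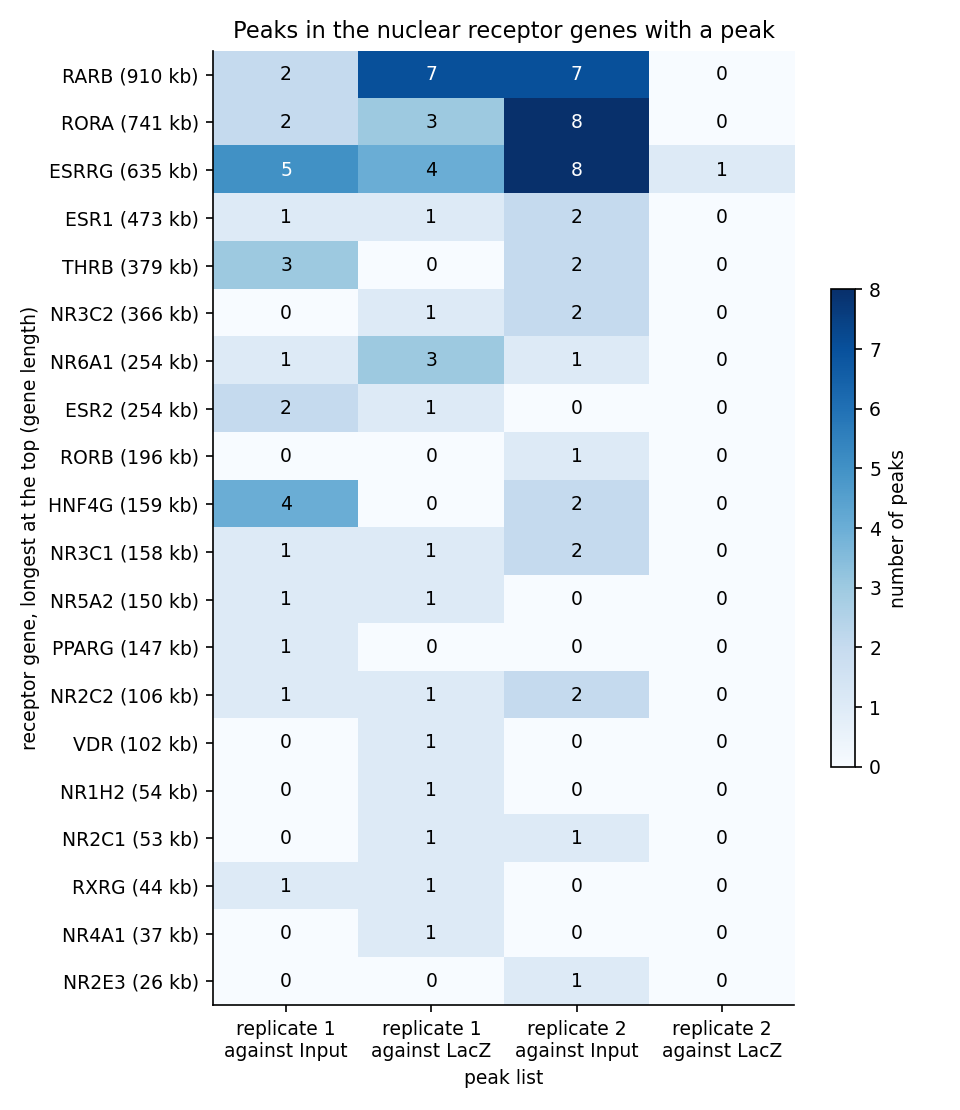
Number of peaks (colour and printed number) in the 20 nuclear receptor genes with a peak, by peak list (columns), with the longest gene at the top. RARB, RORA and ESRRG carry the highest numbers, up to 8, and ESRRG has the only peak in the replicate 2 LacZ list.

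Of the 25 receptor genes with no peak in any list, the longest were ESRRB (191.1 kb), RXRA (123.5 kb), PGR (100.2 kb), PPARA (93.2 kb) and NR1H4 (90.7 kb). ESRRB encodes estrogen-related receptor beta, RXRA the most widely used heterodimer partner, PGR the progesterone receptor and PPARA a fatty acid sensor. Of the genes nearest to ESRRB in length, 43%, 46.5%, 61% and 4% had a peak in the 4 lists. For RXRA the shares were 29%, 36%, 46% and 1%. In the replicate 2 Input list most genes of the length of ESRRB thus had a peak. Without read counts, an absent peak cannot be told from one too weak to be called.

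The closeness of the replicates was compared within the 11 genes that had peaks in both. The shortest distance between a replicate 1 and a replicate 2 peak was 0 in ESRRG, 803 bp in RARB and 817 bp in NR3C1. It was 4141 bp in HNF4G, 10605 bp in NR2C2, 10918 bp in RORA and 18998 bp in NR2C1. In the other 4 genes it was 24328 bp in NR3C2, 42373 bp in NR6A1, 74040 bp in THRB and 113413 bp in ESR1. Most receptor genes with peaks in both replicates therefore had them at different places, with a median distance of 10.9 kb. Overlapping peaks of both replicates occurred in 1 of the 45 genes (0.255 from genes of the same length, 0.29% of protein-coding genes). That gene was ESRRG, whose overlap chose the set, and without it the count was 0 (0.235 from length). Peaks within 1 kb occurred in 3 (0.725 from length, 0.694% of protein-coding genes), or in 2 without ESRRG (0.655 from length). Among the 2244 protein-coding genes with peaks in both replicates, 2.58% had overlapping peaks and 6.19% had peaks within 1 kb. RARB and NR3C1 were named closest after their values were seen, and their replicate 2 peaks were called against Input and not against LacZ.

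**Figure D5:**
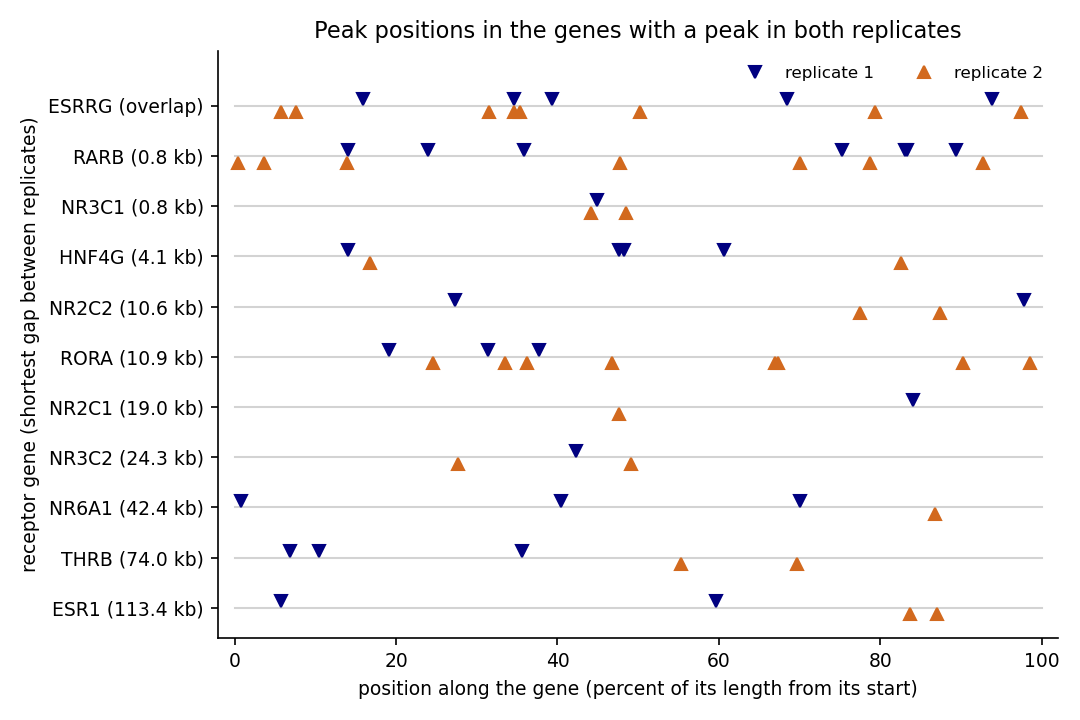
Peak positions along the 11 nuclear receptor genes with a peak in both replicates, as percent of the gene length from its start (horizontal axis), with downward triangles for replicate 1 and upward triangles for replicate 2. The number beside each gene is the shortest gap between replicates, which runs from an overlap in ESRRG to 113.4 kb in ESR1.

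The listed positions also differed between the controls. Once calls of 1 replicate at the same place were counted once, the 93 listed peaks made 79 positions, 40 in replicate 1 and 39 in replicate 2. Of the 40 in replicate 1, 13 were called against both controls, 15 against LacZ alone and 12 against Input alone. The 13 were in ESRRG with 4, RARB and RORA with 2 each, and RXRG, ESR2, NR3C1, NR5A2 and NR6A1 with 1 each. In replicate 2 the shared ESRRG region was the only position called against both. It is the region that chose the set, and the replicate 2 LacZ list held 363 peaks in all, beside 16777 against Input. The same split was not taken over all peaks, so it is not known to be particular to receptor genes.

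All 79 positions had their midpoint in an intron, where exons of any transcript make up 4.94% of the receptor gene length. Of all pairs of a peak and a protein-coding gene, 91.8%, 82.8%, 88.8% and 89.5% in the 4 lists had an intronic midpoint. No receptor gene had a peak midpoint in its 5 kb upstream. An annotated transcript start lay within 2 kb of 8 positions. When the MANE Select span replaced that of all transcripts, 15 of the 20 genes kept a peak in some list, and ESR2, NR1H2, VDR, NR2E3 and NR4A1 had none. Of 95 RefSeq promoter windows (250 bases before to 50 after a start, GRCh38.p14) that were found for 40 of the receptor genes, 1 was crossed by a peak. It belonged to ESRRG, where the replicate 2 peak against Input at chr1:217089224-217089631 reached 63 bp into the window at chr1:217089569-217089868. For these counts near starts no share over all peaks or all RefSeq windows was taken, so they do not set receptor genes apart.

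The hexamer AGGTCA, on either strand, was searched in the peaks because most receptors of the family bind it. It was found in 20 of the 79 positions (25.3%), in 14 receptor genes. By list, 32% of the receptor gene peaks held it in the replicate 1 Input list (95% exact binomial interval 14.9% to 53.5%), where 20.6% of all peaks did. In the replicate 1 LacZ list the shares were 32.1% (15.9% to 52.4%) and 24.4%, and in the replicate 2 Input list 20.5% (9.3% to 36.5%) and 22.4%. The single peak of the replicate 2 LacZ list, in ESRRG, did not hold it, while 28.7% of all peaks of that list did. The shares over all peaks were inside the intervals of the receptor genes, and the first 2 lists have positions in common. This changed with the score. Among peaks scoring at least 60, the hexamer was in 4 of 6 receptor gene peaks of the replicate 1 Input list (66.7%, interval 22.3% to 95.7%) and in 21.2% of all peaks. In the replicate 1 LacZ list it was in 8 of 14 (57.1%, 28.9% to 82.3%) and 24.7%. In the replicate 2 Input list it was in 3 of 14 (21.4%, 4.66% to 50.8%) and 23.4%. The shares over all peaks were thus below the intervals in replicate 1 and inside the interval in replicate 2, with few peaks in each. The replicate 1 lists share a pull-down library, and both counts include the ESRRG region that chose the set. Of the 4 in the replicate 1 Input list, the peaks scoring 65.52 and 78.17 were in ESRRG. No share was taken without ESRRG, and the intervals cover the counting of peaks only, so no excess can be read from them. At or above the median score, the replicate 1 Input share was 44.4% (13.7% to 78.8%), with 21.4% of all peaks inside the interval. In the replicate 1 LacZ list it was 57.1% (28.9% to 82.3%), with 24.7% below, but these were the same 14 peaks as at 60 or more. In the replicate 2 Input list it was 25% (8.66% to 49.1%), with 22.9% inside. In the 200 bp around the peak middle, at any score, the replicate 1 Input share was 16% (4.54% to 36.1%), beside 9.99% of all peaks. It was 14.3% beside 11.9% in the replicate 1 LacZ list and 10.3% beside 10.7% in the replicate 2 Input list. Among RefSeq promoter windows 13.8% held the hexamer, and 15.8% of those of receptor genes. Longer patterns were found in no receptor gene peak: AGGTCA preceded by TCA (0.543% to 0.826% of all peaks in a list), direct repeats of AGGTCA with 0 to 5 bases between them (0.0656% to 0.275%) and the inverted repeat of AGAACA with a spacer of 3 (0 to 0.0119%). The first of these contains the hexamer and is the form known from estrogen-related receptors. None of the receptor gene peaks resembled any of the 9 CRLM1 capture probes, by a blastn search with an E value of at most 0.01, whereas the LINC01767 peak did in every list.

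Examples of the hexamer are printed below in 60-base windows of the plus strand (GRCh38), with capitals for AGGTCA or, where it runs along the minus strand, TGACCT. The first 2 come from the highest-scoring ESRRG position of replicate 1 and from the replicate 1 peak of the shared ESRRG region, outside the 64 shared bases. The next come from 1 peak of the nearest pair in RARB (replicate 1) and in NR3C1 (replicate 2). In both pairs the peak of the other replicate did not hold the hexamer. The last one is from NR4A1, an immediate-early orphan receptor gene, and was picked after its values were seen, since its peak had the highest GC content of all positions, 74.1%, where the lowest was 26.5%.
ESRRG chr1:217036887-217036946: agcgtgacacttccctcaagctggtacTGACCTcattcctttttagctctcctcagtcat
ESRRG chr1:216918611-216918670: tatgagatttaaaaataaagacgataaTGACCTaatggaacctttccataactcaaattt
RARB chr3:24815635-24815694: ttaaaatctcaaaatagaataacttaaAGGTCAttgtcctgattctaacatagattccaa
NR3C1 chr5:143365724-143365783: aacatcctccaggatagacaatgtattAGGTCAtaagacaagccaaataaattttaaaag
NR4A1 chr12:52023625-52023684: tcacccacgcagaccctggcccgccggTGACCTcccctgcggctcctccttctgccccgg
The NR4A1 peak, chr12:52023607-52023953, lay 948 bp from the outermost annotated start of the gene and 27.7 kb before the MANE Select start. It scored 65.05 in the replicate 1 LacZ list, the only list that had it. In ESRRG the hexamer was 5 bp from the middle of the first peak shown and 166 bp from the middle of the second. In RARB it was 8 bp and in NR3C1 122 bp from the middle.

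The genes that act with the receptors were counted in the same way. Of 22 coactivators and corepressors, 14 had a peak in some list, beside 14.3 from genes of the same length. Against Input in both replicates there were 6, beside 4.45 from length. They were NCOA1 and NCOA2, coactivators of the p160 class, NCOA7, the histone acetyltransferase gene CREBBP, the histone methyltransferase gene NSD1 and TBL1XR1, a subunit of the corepressor complex. CREBBP had 1, 4, 2 and 0 peaks in the 4 lists, and NSD1 had 1, 1, 2 and 0. Of 29 classic target genes of the receptors, 12 had a peak in some list, beside 11.3 from length. CD36, a fatty acid transporter gene induced by PPARG, was the only one with a peak against Input in both replicates, beside 2.37 from length. No gene of either group had a peak in the replicate 2 LacZ list.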

How the data were processed

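ChIRP-seq peak lists of 2 replicates against 2 controls were used, 4 lists in all. Per the labels and the methods of the study, the authors used cutadapt for trimming, Bowtie2 for alignment (GRCh38) and MACS for peaks. That each list sets 1 replicate against 1 control comes from the names in the labels. The deposited lists give a start, an end and a score per peak. The score is the value of the authors' peak caller, which was used to describe peaks and not compared in size between lists. The methods name a newer MACS release than the format of the lists, so the caller version and threshold are unsettled. All columns of per-sample values were used.

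Peaks on the main chromosomes were overlapped with GENCODE release 44 gene bodies and 5 kb upstream, by at least 1 bp. The number from genes of the same length used the 200 nearest protein-coding genes. No test was run. The receptor genes, the other gene lists and the named genes were chosen with earlier results of these data known. Named were ESRRG, genes with peaks in both replicates, in both lists of 1 replicate, or with over 3 peaks, and the 5 longest without a peak. Other genes, such as HNF4A, ESRRA and NR4A1, were named after their values were seen. Counting was tested on simulated data. Work was done in Python 3.11.15 with blastn 2.17.0. The removal of LacZ-overlapping peaks that the study describes was not applied here.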

Additional observations from a re-analysis of the deposited data

How the results depend on the processing

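Of 134 alternative values, 109 stayed within the interval of the value reported or, for counts, within 1.5 times of it, and 25 moved. With a score of at least 60, receptor genes with a peak numbered 4, 10 and 7 in the replicate 1 Input list, the replicate 1 LacZ list and the replicate 2 Input list, and 0 in the replicate 2 LacZ list, where both ratios fell to 0. Genes with a peak in both replicates then numbered 3 against Input and 0 against LacZ. With peaks at or above the median score of their list, 6 genes remained in the replicate 1 Input list and 5 in both replicates against Input. The ratio to genes of the same length ran from 0.715 to 1.3 over all alternatives, except in the replicate 2 LacZ list, which rests on the 1 ESRRG peak and ran from 0 to 2.63.

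The MANE Select span and leaving out ESRRG were chosen after seeing the data. With the MANE Select span, 9 genes had a peak in the replicate 1 LacZ list. Either choice gave 0 genes and ratios of 0 in the replicate 2 LacZ list and 0 genes against LacZ in both replicates. Leaving out 1 replicate gave 13 to 18 genes with a peak in some list, the 13 without replicate 1. Regions called in both replicates numbered 0 at a reciprocal overlap of 50% and 3 within 1 kb. The share of peaks with AGGTCA was 66.7% in the replicate 1 Input list at a score of at least 60 (21.2% of all peaks). In the replicate 1 LacZ list it was 57.1% at that score and 57.1% at or above the median score (24.7% of all peaks in both cases). Both settings kept the same receptor gene peaks there. In the 200 bp around the peak middle it was 14.3% in that list (11.9% of all peaks). The cause of these shifts was not tested. The lists give no depth.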
